A study of Mus musculus with 12 samples.

Results

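Among the cells sorted from the brains of transplanted mice, a small number carried transcripts of Spp1, Gpnmb and Fabp5 together, and these are the cells described here. A cell was included if it held at least 2000 unique molecular identifiers (UMIs, 1 per captured transcript), at most 10% of them mitochondrial, and at least 1 UMI each of the 3 genes. Of 31104 deposited barcodes in the 8 treated libraries, 7487 passed the first 2 criteria and 93 of those co-expressed the 3 genes, a share of 1.24%. The comparison cells, called double-negative, came from the same libraries, passed the same criteria and held 0 UMIs of both Spp1 and Gpnmb, and 6713 cells did so. The remaining 681 cells held UMIs of Spp1 or of Gpnmb but were not members. Since the cells were chosen by their UMIs of Spp1, Gpnmb and Fabp5, the levels of these 3 genes are a description and were not tested.

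The study transplanted bone marrow hematopoietic stem/progenitor cells (HSPCs) carrying a lentiviral vector for green fluorescent protein (LVV.GFP) into C57BL/6J mice conditioned with busulfan, and asked how the microglia-like cells (MLCs) that settle in the brain compare with endogenous microglia. HSPCs were given intravenously (i.v.) or intracerebroventricularly (i.c.v.), and every recipient, whatever the route, also received untransduced bone marrow some days later, so that busulfan and both transplants were common to all treated groups. Brains of 1 female and 1 male mouse per route were dissociated with enzymes, CD45+ CD11b+ CX3CR1+ cells were sorted, and the GFP+ cells (MLCs) and GFP- cells (endogenous microglia) of each of the 4 mice were sequenced as separate libraries. The mice are labelled 22 to 28 weeks old, whereas the design text gives 12 to 13 months after dosing. Each sort of each sex and route was thus 1 library from 1 mouse, and GFP- cells can include donor cells that carried no vector. Sorted neurons, astrocytes and microglia of the brain and white blood cells, 1 library each, served as comparators. They are labelled as treatment-naive C57BL/6J, 8 to 12 weeks old, and per the study came from a single animal.

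Osteopontin, the product of Spp1, is a secreted phosphoprotein that binds integrins and CD44. Gpnmb is a transmembrane glycoprotein of endosomes and lysosomes that rises in macrophages loaded with lipid, and Fabp5 is a cytosolic carrier of fatty acids. The 3 transcripts are known together from lipid-laden macrophages of injured tissue and from disease-associated microglia, a state reached around plaques, demyelination and in development that involves the lipid receptor Trem2 and the loss of resting microglial genes.

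In GRCm38, Spp1 lies on the plus strand of chromosome 5 from 104435118 to 104441050, Gpnmb on the plus strand of chromosome 6 from 49036546 to 49070929, and Fabp5 on the plus strand of chromosome 3 from 10012548 to 10016607. The 250 bases before the first RefSeq start of Spp1 (GRCm38.p6, chr5:104434861-104435110, plus strand) and before that of Gpnmb (chr6:49036268-49036517, plus strand) are shown because these 2 genes separate the co-expressing cells from the comparison cells. Capitals mark ACCACA, the letters of a RUNX motif.
Spp1: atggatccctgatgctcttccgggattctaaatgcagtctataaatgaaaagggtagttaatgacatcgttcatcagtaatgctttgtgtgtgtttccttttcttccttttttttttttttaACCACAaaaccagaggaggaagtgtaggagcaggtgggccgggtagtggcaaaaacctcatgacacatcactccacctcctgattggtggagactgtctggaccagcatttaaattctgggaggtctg
Gpnmb: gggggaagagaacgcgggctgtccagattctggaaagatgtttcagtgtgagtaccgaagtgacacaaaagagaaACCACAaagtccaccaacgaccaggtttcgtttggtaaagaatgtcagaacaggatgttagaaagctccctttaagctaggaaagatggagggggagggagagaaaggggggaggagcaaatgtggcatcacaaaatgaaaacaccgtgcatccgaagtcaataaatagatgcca
The motif began 128 bases upstream of the Spp1 start and 175 bases upstream of the Gpnmb start. It was absent from the 250 bases before another RefSeq start of Spp1 (chr5:104435942-104436191, plus strand). Searched on both strands, it occurred in 14.0% of the 32851 promoter windows of this length. None of the other motifs searched (TGACTCA of AP-1, the E-box CACGTG and TCATGTG) was found in either printed window. These are matches of letters and no measurement of binding.

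Libraries differed in depth. They held 5561680 to 16794876 UMIs and 470 to 2023 cells that passed the criteria, and the co-expressing cells were deeper than the comparison cells of their own library in all 7 libraries that held any. Median UMIs per cell ranged over libraries from 13478 to 19878.5 in co-expressing cells and from 4356 to 8449 in comparison cells, and 63 of the 93 co-expressing cells were in the deepest 10% of their library. A rule that requires a UMI of each of 3 genes favours deep cells, and a deep barcode can also hold 2 cells. No doublet caller was run, and 2 of the 93 co-expressing cells held at least 3 markers of any other cell type (lymphocytes, neutrophils, neural or vascular cells), and so did 1.11% to 5.84% of the comparison cells per library. Tests were therefore repeated against comparison cells matched on total UMIs, 3 for each co-expressing cell. The match was incomplete in 2 of the tested libraries. Median UMIs of matched against co-expressing cells were 13223 against 16910 in the GFP- i.c.v.-dosed female and 14852 against 16028 in the GFP+ i.v.-dosed female. In the GFP+ i.c.v.-dosed male they were 14100 against 14129. Of 30983 distinct barcodes, 121 occurred in more than 1 library, and 1 of these was a co-expressing cell. A few comparison cells went against their labels by sex: Xist, which is transcribed from the inactive X of females, had UMIs in 55 of 713 comparison cells (7.71%) of the GFP- library labelled as the i.c.v.-dosed male and in 10 of 502 (1.99%) of that of the i.v.-dosed male. These 2 libraries held 2 and 0 co-expressing cells and entered none of the gene tests.

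The share of co-expressing cells was 0% to 2.32% over the 8 libraries. In the GFP+ libraries it was 2.32% in the i.v.-dosed female (47 of 2023 cells), 0.431% in the i.v.-dosed male (4 of 927), 0.555% in the i.c.v.-dosed female (5 of 901) and 1.53% in the i.c.v.-dosed male (17 of 1110). In the GFP- libraries it was 1.28% in the i.v.-dosed female (6 of 470), 0 of 519 cells in the i.v.-dosed male, which allows a share of up to 0.578%, 1.58% in the i.c.v.-dosed female (12 of 760) and 0.257% in the i.c.v.-dosed male (2 of 777). The ranges overlapped over most of their length. Exact 95% binomial intervals, which cover counting error only, were 1.71% to 3.08% for the highest GFP+ share and 0.818% to 2.74% for the highest GFP- share. The mean share was 1.21% ± 0.890 (SD, n = 4) in MLCs and 0.778% ± 0.767 (SD, n = 4) in endogenous microglia, and the difference of 0.432 percentage points was within the spread of mice (two-sided exact permutation test, p = 0.457, smallest p possible 0.0286). Females ranged from 0.555% to 2.32% and males from 0% to 1.53%, and the routes covered 0% to 2.32% (i.v.) and 0.257% to 1.58% (i.c.v.). With 1 mouse per sex and route these are values side by side. With each cell cut to 2000 randomly drawn UMIs, 39 of the 93 cells still met the rule, 23 of them in the GFP+ i.v.-dosed female, and 4 of the 7 libraries with co-expressing cells then held 0 or 1. The plot of the share per library shows each value with its interval, before and after this draw.

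**Figure D1:**
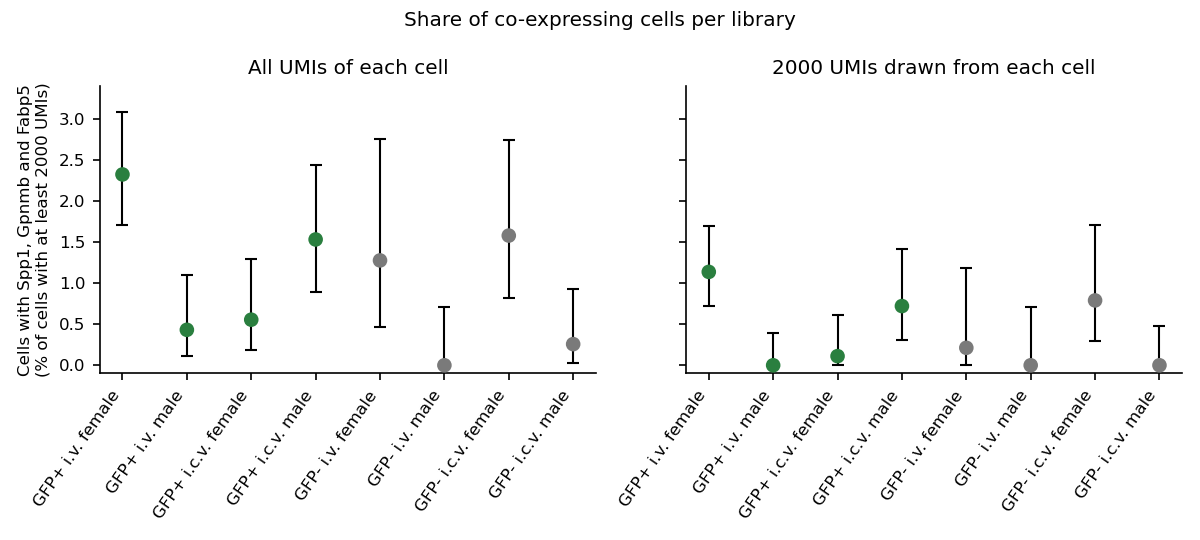
Share of cells co-expressing Spp1, Gpnmb and Fabp5 among cells with at least 2000 UMIs (y axis, percent) in each of the 8 libraries (x axis), with exact 95% binomial intervals, for all UMIs (left) and for 2000 UMIs drawn from each cell (right). Green points are GFP+ and grey points GFP- libraries. On the left the GFP+ shares (0.431% to 2.32%) and the GFP- shares (0% to 1.58%) overlap.

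No cell co-expressed the 3 genes in the treatment-naive libraries, where 461 cells of the neuron sort, 1095 of the astrocyte sort, 50 of the microglia sort and 383 blood cells reached 2000 UMIs. The 50 naive microglia allow a share of up to 6.00%, so a share as low as that of the treated libraries was not detectable there. To gauge free RNA in the treated libraries, cells holding at least 3 neutrophil markers were examined, a cell type not known for Gpnmb. Among 61 such cells with a median of 4443 UMIs, 4 had a UMI of Spp1, 0 of Gpnmb (up to 4.92% allowed) and 15 of Fabp5. In all 7487 cells, whose library medians were 4476 to 8838 UMIs, the shares with a UMI were 9.46%, 2.36% and 11.2%. At 2000 UMIs drawn from every cell the shares were 1.64%, 0% and 13.1% in the neutrophil-marker cells and 4.90%, 1.36% and 4.74% in all cells. At that depth Fabp5 was thus more frequent in neutrophil-marker cells than in all cells. These cells therefore cannot tell free Fabp5 RNA from their own. None of the 61 met the rule, which allows a share of up to 4.92%, so a share near the 1.24% of all cells was not detectable.

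Fabp5 was found in 839 of the 7487 cells and Spp1 in 708, 597 of the latter without Gpnmb, whereas Gpnmb was found in 177 cells, of which 62.7% also held Spp1. At the border of the rule, 28 of the 93 cells had 1 of the 3 genes at a single UMI, 65 had at least 2 UMIs of each and 26 at least 10 of each. Just outside it, 18 cells held Spp1 and Gpnmb without Fabp5, with a median of 1.5 UMIs of Spp1 and 1 of Gpnmb. The co-expressing cells held a median of 9 UMIs of Spp1 (1 to 702), 7 of Gpnmb (1 to 140) and 11 of Fabp5 (1 to 97). The 10 highest cells held 70.5% of all Spp1 UMIs, 49.4% of all Gpnmb UMIs and 40.7% of all Fabp5 UMIs of the class. Spp1 exceeded 10000 CPM (UMIs per 1000000 UMIs of the cell) in 12 cells, 5 in the GFP+ i.v.-dosed female, 3 in the GFP+ i.c.v.-dosed male and 4 in the GFP- i.c.v.-dosed female. Across the 93 cells Spearman's rho was 0.484 for Spp1 and Gpnmb, 0.475 for Spp1 and Fabp5 and 0.629 for Gpnmb and Fabp5. These values describe cells that share libraries and depth and that were chosen for all 3 transcripts. The scatter of single cells shows a tail of high-Spp1 cells in 3 libraries of both sorts.

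**Figure D2:**
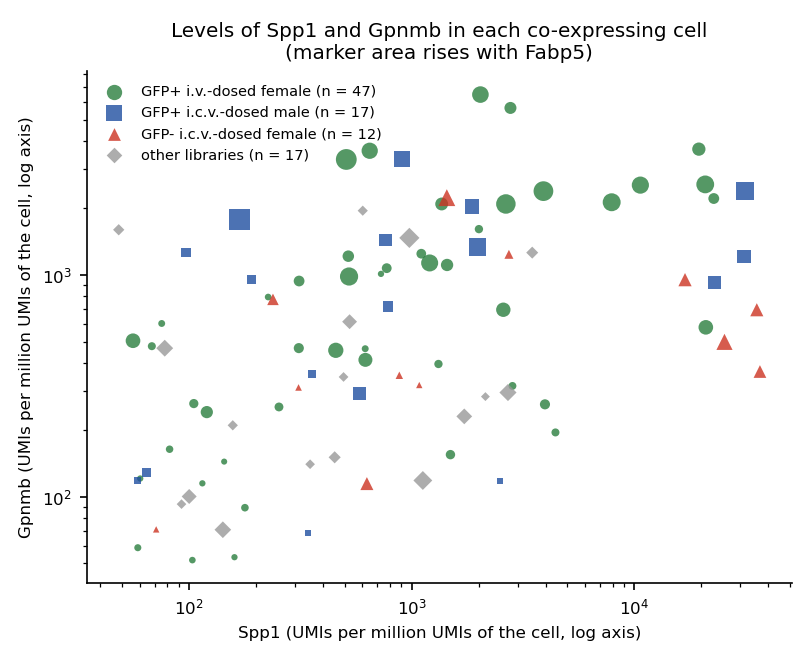
Spp1 (x axis) against Gpnmb (y axis) in each of the 93 co-expressing cells (CPM of the cell, log axes), with colour and symbol for the library and marker area rising with Fabp5. Of the points, 12 lie above 10000 CPM of Spp1, in 3 libraries, and Spp1 spans 48.3 to 36733 CPM.

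Summed over the co-expressing cells of a library, Spp1 reached 3758 CPM in the GFP+ i.v.-dosed female, 5629 in the GFP+ i.c.v.-dosed male, 1458 in the GFP+ i.v.-dosed male, 643 in the GFP+ i.c.v.-dosed female, 11201 in the GFP- i.c.v.-dosed female, 293 in the GFP- i.v.-dosed female and 1918 in the GFP- i.c.v.-dosed male. Gpnmb ranged from 207 CPM in the GFP- i.c.v.-dosed male to 1315 in the GFP+ i.v.-dosed female, and Fabp5 from 269 in the GFP+ i.v.-dosed male to 1475 in the GFP- i.c.v.-dosed male. The sorts overlapped for all 3 genes. In the comparison cells, where Fabp5 was not part of the rule, Fabp5 was at 14.0 to 44.2 CPM in these 7 libraries.

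Genes outside the rule were compared between co-expressing and comparison cells in the libraries that held at least 10 co-expressing cells. These were the GFP+ i.v.-dosed female (47 cells), the GFP+ i.c.v.-dosed male (17) and the GFP- i.c.v.-dosed female (12), and per-library levels are given in this order below, in CPM of the summed UMIs. Counts were summed per library and class and tested with edgeR's quasi-likelihood test with the library as a block and Benjamini-Hochberg adjustment over all genes tested. Of 9342 genes, 569 were higher in co-expressing cells (6.09%) and 541 lower (5.79%) at an adjusted p under 0.05, and the median log2 fold change over all genes was -0.06. Against comparison cells matched on depth, 284 of 5646 genes were higher (5.03%) and 198 lower (3.51%). Of the genes called in the first comparison that could be tested again, 262 of 522 higher and 159 of 417 lower genes were called again, and 0 were called in the opposite direction. The GFP+ i.v.-dosed female carried much of the count: without it 108 genes were higher (1.16%) and 64 lower (0.688%). With the 5 libraries of at least 5 co-expressing cells, 574 genes were higher (6.9%) and 657 lower (7.89%). With 2000 UMIs per cell, 131 were higher (2%) and 249 lower (3.81%), and without cells carrying markers of other cell types 549 were higher (5.97%) and 629 lower (6.84%). Against comparison cells that held Fabp5, 199 were higher (3.37%) and 149 lower (2.52%). In the text below, adjusted p values come from this edgeR test unless a depth-matched fit is named.

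The highest fold change belonged to Atp6v0d2, an isoform of the membrane subunit d of the vacuolar proton pump known from osteoclasts and phagocytic macrophages (GRCm38 chromosome 4, 19876841 to 19922605, minus strand). It was at 87.1, 125 and 95.8 CPM in co-expressing cells and at 0.328, 0 and 0.253 CPM in comparison cells. The classes were far apart in each library, and the log2 difference was 8.94 ± 0.47 (SE, edgeR adjusted p = 6.94e-08). Atp6v0d2 was detected in 32 of the 93 cells, and the highest cell held 12.3% of its UMIs. It was also higher in the 2 libraries with fewer than 5 co-expressing cells. There it was at 64.0 against 0 CPM in the GFP+ i.v.-dosed male (4 cells) and 207 against 0 CPM in the GFP- i.c.v.-dosed male (2 cells). When 2000 UMIs were drawn from every cell, 13 of 93 co-expressing cells (14.0%) and 4 of 6713 comparison cells (0.0596%) held a UMI of it. In the libraries outside the test these were 1 of 5 co-expressing cells of the GFP+ i.c.v.-dosed female and 0 of 6 of the GFP- i.v.-dosed female. In the GFP+ i.v.-dosed male and the GFP- i.c.v.-dosed male they were 0 of 4 and 0 of 2.

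Among the other genes of at least 50 CPM with a large increase were Cdo1, a cysteine dioxygenase, at 68.0, 87.7 and 70.6 CPM against 0.328, 0.262 and 0.507, and Ahnak2, a large scaffold protein, at 87.1, 104 and 106 CPM against 1.97, 2.23 and 2.53. Their log2 differences were 7.88 ± 0.47 and 5.69 ± 0.29 (SE, edgeR adjusted p = 1.97e-07 and 6.94e-08). Some of the other leading genes rested on few cells. Saa3, an acute-phase apolipoprotein, was at 241, 334 and 15.1 CPM against 3.68, 0.655 and 1.01, but 7 of the 93 cells held it and 65.0% of its UMIs were in 1 cell. Mmp12, the macrophage elastase, was at 317, 814 and 80.7 CPM against 23.8, 6.03 and 9.37, with UMIs in 23 cells and 31.3% of them in 1 cell. Fabp4, the fatty acid carrier of adipocytes and macrophages, was at 107, 83.5 and 5.04 CPM against 4.18, 0.131 and 0.507, in 24 cells, and was the only member of the fatty acid binding protein list that could be tested. Anpep, a membrane aminopeptidase, and Cox6a2, a subunit of cytochrome c oxidase, rose by 5.38 ± 0.46 and 4.25 ± 0.33 on the log2 scale (edgeR adjusted p = 3.08e-06 and 1.36e-06). The plot of per-library levels sets the 2 classes side by side for these and other named genes.

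**Figure D3:**
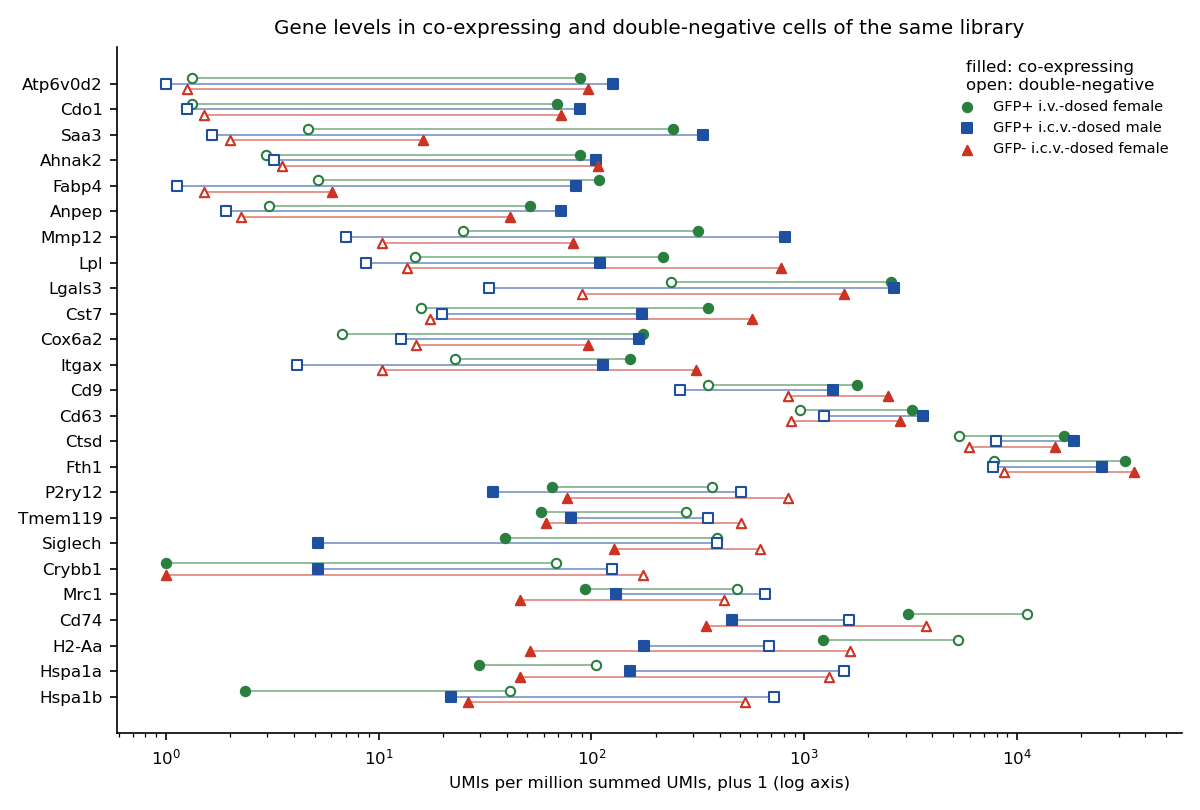
Levels (x axis, CPM of summed UMIs plus 1, log axis) of the 12 genes with the largest increase and of other named genes (rows) in co-expressing (filled) and double-negative (open) cells of the 3 libraries with at least 10 co-expressing cells, by colour and symbol. Atp6v0d2, for example, is at 87.1 to 125 CPM in co-expressing cells and at 0 to 0.328 CPM in comparison cells.

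Genes of disease-associated microglia moved together. Of 24 listed genes 23 were tested, 19 were higher, 0 were lower and 4 did not pass, and the median log2 difference was 1.42 against -0.06 over all genes. Their summed level was 11.7% to 15.0% of all UMIs in co-expressing cells and 6.66% to 11.7% in comparison cells of the 3 libraries, higher in each library. Most of this sum was Apoe, whose levels are given below, so it says little about the other members. Lpl, lipoprotein lipase, was at 216, 109 and 776 CPM against 13.8, 7.73 and 12.7 (4.83 ± 0.34, edgeR adjusted p = 5.82e-07). Cst7, an inhibitor of cysteine cathepsins, was at 354, 171 and 570 CPM against 14.9, 18.9 and 16.5 (4.56 ± 0.30, adjusted p = 3.72e-07 by edgeR). Lgals3, galectin-3, was at 2560, 2643 and 1532 CPM against 237, 31.9 and 89.4. It was detected in 88 of the 93 cells and rose by 4.80 ± 0.41 on the log2 scale (edgeR adjusted p = 3.44e-06). Itgax, the integrin chain CD11c, was at 151, 113 and 308 CPM against 21.9, 3.15 and 9.37.

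Members of the list that are abundant in all microglia rose less. Cd63, a tetraspanin of late endosomes, was at 3221, 3624 and 2828 CPM against 955, 1238 and 869, and the related Cd9 at 1768, 1357 and 2475 CPM against 354, 260 and 836. In the GFP- i.v.-dosed female, which held 6 co-expressing cells, Cd9 was lower in them (777 against 1516 CPM). The protease Ctsd was at 16517, 18586 and 15012 CPM against 5313, 7970 and 5912. Trem2 and its signalling adaptor Tyrobp rose by 1.06 ± 0.15 and 1.02 ± 0.14 on the log2 scale (edgeR adjusted p = 0.000283 and 0.000177). Apoe, the main lipid carrier of the brain, was at 92561, 101172 and 70147 CPM against 64137, 95545 and 47931, a log2 difference of 0.61 ± 0.13 (edgeR adjusted p = 0.00535) that did not pass without the GFP+ i.v.-dosed female (0.51, adjusted p = 0.200). Among the 4 that did not pass were Axl, a receptor for apoptotic cells, with 234, 184 and 302 CPM against 196, 206 and 157, and the inhibitory receptor Lilrb4a, with 89.8, 96.0 and 111 CPM against 125, 142 and 127.

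Genes that take up, store and digest lipid were mostly higher. Of 24 listed genes 22 were tested, 13 were higher, 1 was lower (the desaturase Scd2, -1.24) and 8 did not pass, with a median log2 difference of 0.99. Nceh1 and Lipa, which free cholesterol from its esters, were at 110, 142 and 95.8 CPM against 33.7, 27.4 and 20.8, and at 350, 539 and 262 CPM against 123, 114 and 101. Soat1, which makes cholesterol esters, was at 185, 263 and 313 CPM against 86.9, 103 and 78.8, and the lipid droplet coat protein Plin2 rose by 1.06 ± 0.17 on the log2 scale (edgeR adjusted p = 0.00114). Abca1, which exports cholesterol, did not pass the test. It was at 151, 213 and 252 CPM against 319, 425 and 316, and at 0.00 on the log2 scale against depth-matched cells (adjusted p = 0.999).

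Of 26 listed lysosomal genes 25 were tested, 13 were higher, 0 lower and 12 did not pass, with a median log2 difference of 0.61. The count rested on 1 library: without the GFP+ i.v.-dosed female 2 of 25 were higher and 0 lower, and with 2000 UMIs per cell 3 of 23 were higher and 1 lower. The summed level was higher in co-expressing cells of 5 libraries but lower in the GFP+ i.c.v.-dosed female (1.41% against 1.53% of UMIs) and the GFP- i.v.-dosed female (1.31% against 1.63%). The catalytic subunit of the proton pump, Atp6v1a, was at 125, 209 and 207 CPM against 53.3, 89.9 and 88.6 (1.45 ± 0.17, edgeR adjusted p = 6.46e-05). The lysosomal membrane protein Lamp1 was at 1504, 1758 and 1200 CPM against 907, 1153 and 883, and Glb1, a beta-galactosidase, rose by 1.25 ± 0.20 on the log2 scale (edgeR adjusted p = 0.000858). Lamp2, with 377, 409 and 499 CPM against 339, 427 and 441, overlapped between the classes. None of the 4 factors of the Mitf family, which control lysosomal genes, passed the test, and their log2 differences ran from -0.43 (Tfe3) to 0.56 (Tfec).

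Of 12 tested iron genes, 5 were higher and 4 lower, with a median log2 difference of 0.29, and without the GFP+ i.v.-dosed female 2 were higher and 0 lower. The ferritin chains rose, Fth1 to 32288, 24941 and 35252 CPM from 7788, 7722 and 8719 (2.14 ± 0.13, edgeR adjusted p = 2.34e-07) and Ftl1 to 12445, 10681 and 10032 CPM from 4789, 5813 and 4837. The iron exporter Slc40a1 was lower, at 21.8, 50.1 and 15.1 CPM against 98.2, 147 and 118. Hmox1, which breaks down heme, had 165, 196 and 161 CPM against 90.0, 287 and 245, higher in 1 library and lower in the other 2. Ferritin chains have processed copies in the mouse genome whose reads can be shared with them.

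Genes of matrix and repair were divided, with 8 of 17 tested higher, 3 lower and a median log2 difference of 0.79. Beside Mmp12, annexin Anxa5 was at 750, 572 and 620 CPM against 220, 178 and 149, and Plaur, the urokinase receptor, at 101, 171 and 237 CPM against 38.5, 63.6 and 77.0. Sparc, a matrix protein that is also a marker of resting microglia, was lower, at 61.2, 91.9 and 308 CPM against 360, 619 and 871. Of 12 tested genes of glycolysis and hypoxia, 8 were higher and 0 lower, with a median of 1.28. The glycolytic enzyme Pkm was at 491, 388 and 776 CPM against 162, 133 and 187, and Mif, a cytokine induced by hypoxia, at 438, 317 and 600 CPM against 126, 113 and 145.

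For the receptors of osteopontin little difference was called. Of 7 tested integrin chains and CD44, 0 were higher and 1, Itga9, was lower (6.80, 4.18 and 5.04 CPM against 18.7, 28.6 and 33.9), with a median log2 difference of 0.17. Itgb5 was the highest of those that did not pass, with 514, 451 and 802 CPM against 410, 478 and 618. Of 14 tested cytokines and chemokines, 3 were higher and 1 lower. Cxcl14 was at 173, 196 and 237 CPM against 26.5, 21.5 and 15.2, and higher in all 7 libraries with co-expressing cells (3.41 ± 0.22, edgeR adjusted p = 3.44e-07). Cxcl16 and the interleukin-1 antagonist Il1rn were the other 2 that rose (0.76 and 2.59 on the log2 scale), though Il1rn was lower in co-expressing cells of the GFP+ i.c.v.-dosed male (4.18 against 8.65 CPM). Ccl12 fell by 2.05 on the log2 scale (adjusted p = 0.0371). None of 12 interferon-stimulated genes passed (median -0.30).

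Resting microglial genes were lower. Of 20 listed genes 19 were tested, 0 were higher and 13 lower, with a median log2 difference of -1.18. Their summed level was 1.61% to 2.12% of UMIs in co-expressing cells and 2.75% to 3.86% in comparison cells. P2ry12, the ADP receptor of resting microglia, was at 63.9, 33.4 and 75.6 CPM against 368, 503 and 837 (-2.90 ± 0.25, edgeR adjusted p = 4.24e-06). Tmem119 was at 57.1, 79.3 and 60.5 CPM against 278, 354 and 503, and the lysophospholipid receptor Gpr34 at 135, 175 and 141 CPM against 531, 580 and 950. Crybb1, a crystallin of resting microglia, was at 0, 4.18 and 0 CPM against 67.1, 125 and 173. When 2000 UMIs were drawn from each cell, 10 of 93 co-expressing cells (10.8%) and 3908 of 6713 comparison cells (58.2%) held P2ry12. Every co-expressing cell held UMIs of at least 4 of the 20 genes (median 12) and of at least 11 of the 24 disease-associated genes (median 19), numbers that rise with the depth of a cell.

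Markers of CNS-associated macrophages (CAMs), which line the brain borders, were also lower in the 3 tested libraries. Of 12 tested, 9 were lower and 1 higher, with a median log2 difference of -2.94 (-2.35 with the 2 genes at 0 UMIs in co-expressing cells, Lyve1 and Cd209f, set at 3 counts) and summed levels of 0.0943% to 0.214% against 0.253% to 0.335%. The mannose receptor Mrc1 was at 92.5, 129 and 45.4 CPM against 480, 654 and 417, the chemokine Pf4 at 93.9, 87.7 and 25.2 CPM against 411, 534 and 408, and the factor Maf at 136, 163 and 131 CPM against 543, 636 and 590. Ms4a7, a membrane protein of border and marrow-derived macrophages, went the other way, at 1578, 1365 and 620 CPM against 875, 929 and 451 (0.85 ± 0.16, edgeR adjusted p = 0.00254). Against depth-matched cells 6 CAM genes could be tested, of which 3 were lower and 1 higher. Outside the test, the sum was higher in the 6 co-expressing cells of the GFP- i.v.-dosed female (0.217% against 0.167% of UMIs). It was lower in those of the GFP+ i.v.-dosed male, the GFP+ i.c.v.-dosed female and the GFP- i.c.v.-dosed male. The word macrophage is used here in the broad sense that includes microglia: every cell held microglial genes, and of the 12 border markers tested only Ms4a7 was higher.

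Class II genes of the major histocompatibility complex, which present antigen, were lower in sum, 8 of 8 tested (median log2 difference -2.19), 7 of 7 against depth-matched cells, and 3 of 8 without the GFP+ i.v.-dosed female. Cd74, the invariant chain, was at 3059, 455 and 343 CPM against 11084, 1624 and 3715, and H2-Eb1 at 1154, 66.8 and 45.4 CPM against 5054, 541 and 1384. The typical cell differed less than the sum. In the GFP+ i.v.-dosed female the median cell had 0.129% of its UMIs in these genes among co-expressing cells and 0.152% among comparison cells, and the highest comparison cell reached 15.5%. In the GFP+ i.c.v.-dosed female the sum over the 5 co-expressing cells was higher (0.205% against 0.113%), while their median cell was lower (0.00925% against 0.0612%) and the highest of them was at 0.801%. With 2000 UMIs drawn from every cell and the libraries pooled, Cd74 was held by 45.2% of co-expressing and 35.4% of comparison cells. For H2-Aa the pooled shares were 33.3% and 25.6%. Pooling mixes libraries that differ in these genes. In the 3 tested libraries the Cd74 shares were 53.19%, 29.41% and 25% against 51.22%, 29.25% and 31.96%. For H2-Aa they were 44.68%, 23.53% and 16.67% against 43.82%, 15.98% and 22.68%. Cd74 differed little in these 2 GFP+ libraries. In the GFP- library both genes were less frequent in co-expressing cells, but this rests on 3 and 2 of 12 cells. Both were more frequent in co-expressing cells of the GFP- libraries outside the test. In the i.v.-dosed female (6 cells) Cd74 was in 50% against 17.7% and H2-Aa in 16.7% against 9.62%. In the i.c.v.-dosed male (2 cells) Cd74 was in 50% against 28.9% and H2-Aa in 50% against 15.8%. Dendritic cell genes ran alongside: 2 of 5 tested were lower and 0 higher, and Cd209a had 0 UMIs in co-expressing cells of the 3 libraries against 171, 35.8 and 40.8 CPM, at least 41.5-fold lower with 3 counts over the 3 libraries as the limit. The lectins Clec10a and Mgl2 of dendritic cells and border macrophages were at 1.36, 0 and 5.04 CPM against 61.0, 19.4 and 85.4 and at 16.3, 0 and 20.2 CPM against 236, 33.8 and 389. The part of dendritic cells among the comparison cells in the class II difference was not tested.

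Early response and heat shock genes, which also move when tissue is dissociated, were lower, 11 of 14 tested, with 0 higher and a median log2 difference of -0.99. Hspa1b was at 1.36, 20.9 and 25.2 CPM against 40.5, 718 and 524 (-4.58 ± 0.29, edgeR adjusted p = 2.92e-07) and Hspa1a at 28.6, 150 and 45.4 CPM against 104, 1534 and 1310. These 2 genes are nearly identical and can share reads, so their values are not independent. Fosb was at 424, 271 and 202 CPM against 912, 1220 and 853. The 12 largest decreases also took in the adaptor Bank1 (4.08, 0 and 0 CPM against 62.3, 86.9 and 75.0), the chemokine Ccl7 (2.72, 4.18 and 10.1 CPM against 68.7, 135 and 139), the small heat shock protein Hspb1, the calcium-binding protein S100a4 of monocytes and the granule protein Ltf of neutrophils.

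Markers of other cell types were low or lower in the co-expressing cells, apart from Flt1. Neutrophil markers were lower in 2 of 3 tested genes, with S100a8 at 6.80, 0 and 10.1 CPM against 735, 0 and 3280. Once cells with at least 3 markers of another cell type had been removed, 0 of 2 tested neutrophil genes passed and S100a8 had a log2 difference of 1.62 (edgeR adjusted p = 0.318). Astrocyte genes were lower in 4 of 4 tested and in 0 of 3 after the same removal, and Ttr of the choroid plexus was lower with and without those cells. Monocyte genes were lower in 3 of 3 tested, B cell genes in 1 of 2 and oligodendrocyte genes in 0 of 3. Of vessel markers only Flt1, a receptor for vascular growth factors, could be tested. It was higher, at 53.1, 66.8 and 192 CPM against 4.34, 7.87 and 17.2, while Cldn5 and Pecam1 were too low to be tested. Cell cycle genes were lower in 2 of 7 tested (Mki67 and Top2a, at 1.36, 0 and 0 CPM each against 6.55 to 15.7). None of the genes of T or NK cells, erythroid cells, oligodendrocyte precursors, neurons or fibroblasts was high enough to be tested. The GFP+ i.v.-dosed female, with the most co-expressing cells, decided many of these counts. Without it, 14 of 23 disease-associated genes, 8 of 21 lipid genes and 5 of 12 genes of glycolysis and hypoxia were higher. Of 17 matrix genes 4 were higher and 0 lower, and of 16 cytokine genes 1 was higher and 2 lower. Lower calls numbered 7 of 20 for resting microglia, 7 of 14 for early response and heat shock, 3 of 12 for CAMs (0 higher), 1 of 1 for monocytes, and 0 for dendritic cell, astrocyte, cell cycle, choroid plexus and lineage genes and osteopontin receptors. The plot of the lists shows their members and medians.

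**Figure D4:**
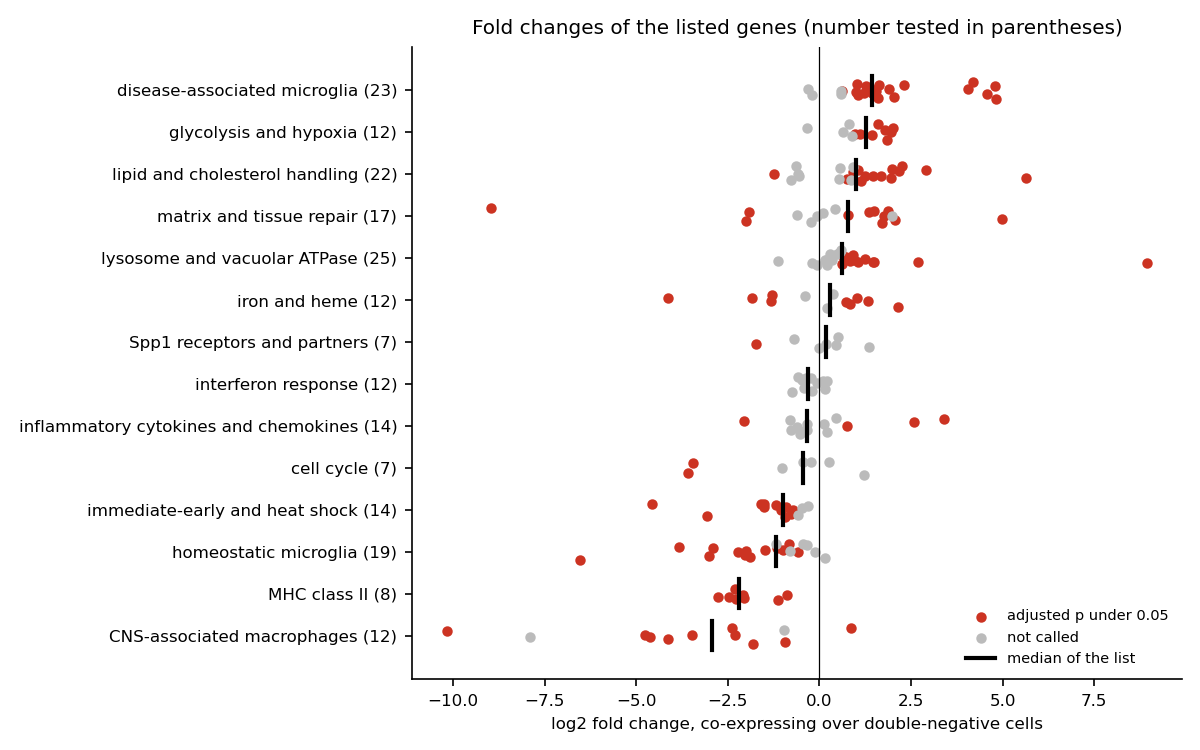
Log2 difference of co-expressing against comparison cells for the tested members of each gene list (points). The number of genes tested stands beside each list of at least 7, red points passed the test and the black bar is the median. Lists of disease-associated microglia (median 1.42), lipid handling (0.99) and glycolysis (1.28) lie above the median of all genes (-0.06), and resting microglia (-1.18), CAMs (-2.94) and MHC class II (-2.19) below it.

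The class comparison was also run within each sort. In the 2 GFP+ libraries 543 of 10313 genes were higher (5.27%) and 582 lower (5.64%). Only 1 GFP- library held 10 co-expressing cells, so the GFP- sort was fitted with its 2 libraries of at least 5 (6 and 12 cells), a choice made after the counts of cells were seen, and there 156 of 8470 genes were higher (1.84%) and 207 lower (2.44%). Whether the class difference itself depended on the sort was tested as an interaction, with 1 GFP- library. Each library of this fit came from a different mouse, so sort and mouse cannot be told apart in it. The signed log2 difference (GFP+ minus GFP-) was positive in 15 genes (0.161% of those tested) and negative in 14 (0.15%), 0.31% in all, and in the fit with 5 libraries 7 and 1. Of 29 and 8 genes called in these 2 fits, 6 were shared: Cd74, Gdf15, H2-Aa, H2-Eb1, Jun and Nav2. A positive value can mean a smaller decrease in MLCs, as for Cd74, whose levels in both sorts are given above. Gdf15, a stress-induced cytokine, was at 204 and 288 CPM in co-expressing cells of the GFP+ i.v.-dosed female and i.c.v.-dosed male against 29.1 and 114 CPM in comparison cells, and at 25.2 against 187 CPM in the GFP- i.c.v.-dosed female. Its signed class difference was higher by 5.00 ± 0.56 log2 units in MLCs (edgeR adjusted p = 5.31e-09). In the GFP+ i.v.-dosed male, which was not in the fit, Gdf15 was lower in co-expressing cells (12.8 against 95.8 CPM), and 30.5% of its UMIs in the class were in 1 cell.

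Co-expressing cells of the 2 sorts were also compared directly, 2 GFP+ libraries against 1 GFP-, again each from a different mouse. Of 3526 genes 6 were higher in MLCs (0.17%) and 9 lower (0.255%). Interleukin-1 beta (Il1b) was at 155 and 171 CPM in MLCs and at 2480 CPM in the GFP- i.c.v.-dosed female (-3.86 ± 0.26, edgeR adjusted p = 0.000185). It was at 14.7 CPM in the GFP- i.v.-dosed female, 1387 in the GFP- i.c.v.-dosed male, 422 in the GFP+ i.v.-dosed male and 655 in the GFP+ i.c.v.-dosed female, so that the sorts overlapped over all libraries. Fibronectin (Fn1) was at 151 CPM in the GFP- i.c.v.-dosed female and at 0 in the other 6 libraries, with all 30 UMIs in 3 cells. With the 5 libraries of at least 5 co-expressing cells, edgeR called 0 genes in either direction, 113 of 2612 had an unadjusted p under 0.05, and DESeq2, run with the 3 libraries, called 5 higher and 5 lower. With 5 libraries and the mouse as a block, edgeR called 4 and 1. At these numbers of libraries only large differences between sorts could pass, and the routes, with 1 library each, were not tested.

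Donor origin was read from sex-linked transcripts, since per the study's methods the transduced HSPCs came from male mice only. In the GFP+ i.v.-dosed female 35 of 47 co-expressing cells (74.5%, exact 95% interval 59.7% to 86.1%) held a Y-linked transcript (Ddx3y, Eif2s3y, Kdm5d or Uty) and 0 held Xist, which allows up to 6.38%. Among depth-matched comparison cells of that library 105 of 141 (74.5%) held a Y-linked transcript and 11 held Xist. In the GFP+ i.c.v.-dosed female 3 of 5 co-expressing cells held a Y-linked transcript and the other 2 held Xist. Of its 15 depth-matched comparison cells, 10 held a Y-linked transcript and 1 held Xist, as did 0.585% of all its comparison cells. In the GFP- i.c.v.-dosed female 12 of 12 co-expressing cells held Xist, with 3 to 38 UMIs (median 16), and 0 held a Y-linked transcript (up to 25.0% allowed). Its depth-matched comparison cells were alike, with Xist in 35 of 36 and a Y-linked transcript in 0. In the GFP- i.v.-dosed female 2 of 6 held Xist, 2 a Y-linked transcript and 2 neither. Of its 18 depth-matched comparison cells, 12 held Xist and 3 a Y-linked transcript. In males the Y-linked transcripts do not separate donor from recipient. Of the 6 lineage transcripts tested between the classes, 1, Ddx3y, was lower (29.9, 41.8 and 0 CPM against 88.2, 173 and 6.84), and the median log2 difference was -0.39. Co-expressing cells in females were thus found with male transcripts and with Xist. The GFP transgene was read in 11 of 73 GFP+ co-expressing cells (15.1%), 687 of 4446 GFP+ comparison cells (15.5%) and 0 of 20 GFP- co-expressing cells (up to 15.0% allowed), so that most sorted GFP+ cells showed no transgene UMI in either class.

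**Figure D5:**
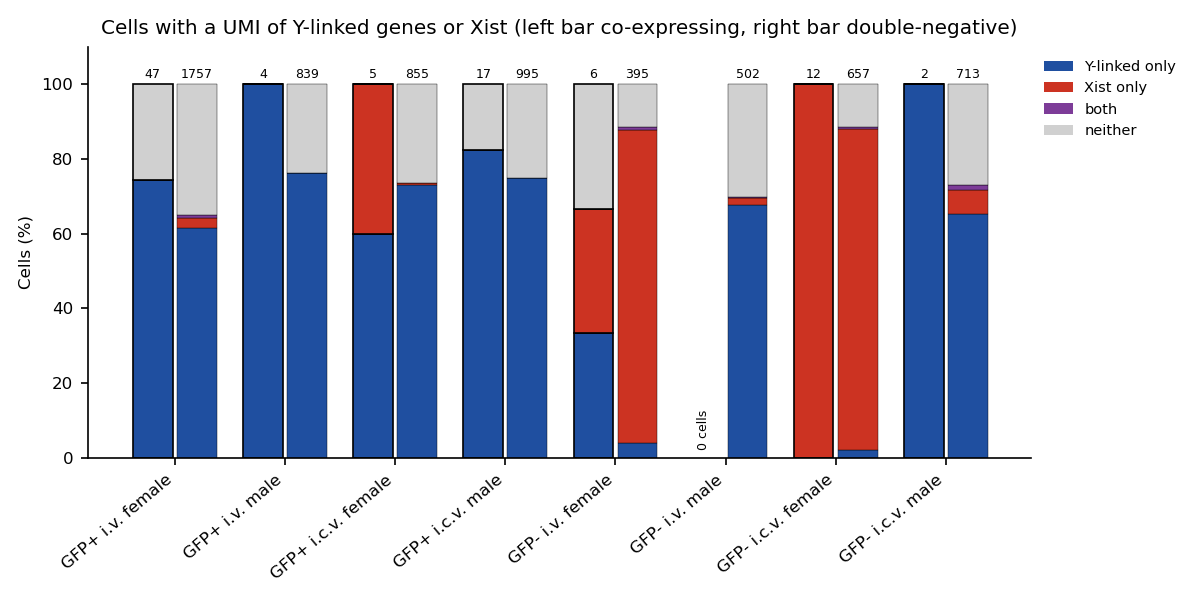
Cells with a UMI of a Y-linked gene, of Xist, of both or of neither (y axis, percent of cells, stacked bars) in each library, for co-expressing (left bar) and double-negative cells (right bar), with the number of cells above each bar. In females the GFP+ co-expressing cells are mostly Y-positive (35 of 47 and 3 of 5), whereas the 12 of the GFP- i.c.v.-dosed female are all Xist-positive. Of the double-negative cells of that GFP- library 86.5% are Xist-positive.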

How the data were processed

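The series holds single-cell RNA of 8 libraries from 4 treated mice and of 4 treatment-naive libraries. The authors made the deposited counts with Cell Ranger 3.1.0 (per the file headers) against mm10 (per the submitters' processing notes), and the values are whole UMI counts per gene and barcode without normalization, 5561680 to 16794876 per treated library. Group and mouse number came from the labels, and same-numbered GFP+ and GFP- libraries are 1 mouse. The library was the unit of replication. Replicates were mice, 1 per sex and route, so no sex or route was tested.

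Cells with at least 2000 UMIs and at most 10% mitochondrial UMIs were classed by the 3 genes. UMIs were summed per library and class, and libraries with at least 10 co-expressing cells were compared with edgeR 4.0.16 under R 4.3.3 (TMM, filterByExpr, quasi-likelihood test, library as block, Benjamini-Hochberg adjustment, threshold 0.05). With 2 residual degrees of freedom, or 1 in the smaller fits, the spread of a gene was estimated largely from all genes, and a single GFP- library was assumed to vary like the others. Spp1, Gpnmb and Fabp5 stayed in library sizes and were not tested. Shares were compared by exact permutation with scipy 1.17.1. Each fit was tested on simulated data, and the interaction recovered few changes.

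Alternatives were DESeq2 1.42.0, no filter, 2000 UMIs drawn per cell, depth-matched comparison cells, comparison cells with Fabp5, removal of cells with other markers, other thresholds, no block, and each library left out. Alternatives with at least 5 cells per library were added after the cells had been counted, except the pooled comparison itself at that threshold. Genes are named if they are among the 12 largest changes in a direction with at least 50 CPM and 1 direction in every library, up to 4 called and 2 uncalled members of each list, or up to 5 per direction in the other comparisons. Members of the lists named outside this rule were chosen after their values were seen. The class and the 30 gene lists were chosen with earlier results of these data known. Gene positions were matched by Ensembl identifier to GENCODE for GRCm38 (30934 of 31054 features), and promoter sequences came from RefSeq for GRCm38.p6, which held Spp1 and Gpnmb among the 3 genes. Doublets were not called.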

Additional observations from a re-analysis of the deposited data

Results flagged for a closer look

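The interaction test of edgeR set the class difference between co-expressing and double-negative cells in 2 GFP+ libraries against that in 1 GFP- library. The GFP- library was the i.c.v.-dosed female. Each library came from a different mouse, so sort and mouse cannot be told apart in this fit. Given here is the GFP+ minus the GFP- difference on the log2 scale, for the 5 largest called in each direction with at least 50 CPM. It was -9.84 for Xist (adjusted p = 2.42e-05) and -9.49 for Adamts1 (adjusted p = 0.00280), and the 2 GFP+ libraries held 0 UMIs of Xist in co-expressing cells, so that value is no bound of a fold. It was -5.02 for Grasp, -4.47 for Ccl5 and -3.56 for Il1b (adjusted p = 0.0199, 3.17e-05 and 5.62e-12). It was 5.08 for Acod1, 5.00 for Gdf15, 3.86 for Ccl2, 3.31 for Gclm and 2.97 for H2-Aa (adjusted p = 0.0498, 5.31e-09, 3.17e-05, 0.000473 and 1.80e-07). With the 5 libraries of at least 5 co-expressing cells, Gdf15 (5.08, adjusted p = 7.29e-08) and H2-Aa (3.07, adjusted p = 0.00448) passed again, Acod1 was not tested, and the other 7 did not pass. Xist then had a value of 2.47 (adjusted p = 0.932). Of the UMIs in co-expressing cells, 1 cell held 67.9% for Acod1, 59.1% for Ccl5 and 54.5% for Grasp. These 3 genes had UMIs in 6, 6 and 4 of the 93 cells, and Adamts1 in 7. The highest cell held 30.5% for Gdf15, 30.2% for Gclm, 29.2% for Ccl2 and 28.6% for Adamts1. It held 26.9% for Il1b, 19.8% for H2-Aa and 15.6% for Xist. No library stood apart by Dixon's test in the 14 groups examined, where chance gives about 1 in 20.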

How the results depend on the processing

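The difference in share between the sorts kept its direction and did not pass the test under any alternative. It ranged from 0.0611 to 0.699 percentage points (exact permutation p = 0.200 to 0.857), with the lowest value without the GFP+ i.v.-dosed female and the highest without the GFP- i.c.v.-dosed female. With the mouse as replicate block, by sign-flips within the 4 mice, p was 0.375 for the same 0.432 points, and the smallest p possible was 0.125. The counts of called genes depended on the processing, with higher and lower genes given in turn. In the pooled comparison (569 and 541) they were 131 and 249 with 2000 UMIs drawn per cell, 284 and 198 with depth-matched cells, 199 and 149 with comparison cells that held Fabp5, and 353 and 266 without the replicate block. DESeq2 gave 288 lower genes. With at least 5 cells per library, depth-matched cells gave 155 and 140, and without the deepest 10% of cells, which left 2 GFP+ libraries, 153 and 234. Leaving out 1 library gave 108 to 543 higher and 64 to 582 lower genes, and with at least 5 cells 311 to 587 and 392 to 750, each lowest without the GFP+ i.v.-dosed female. In the GFP+ libraries (543 and 582) the same changes gave 94 and 143 (2000 UMIs), 290 and 259 (depth-matched), 292 and 299 (with Fabp5), 134 and 65 (no replicate block), 211 and 122 (DESeq2), 129 and 80 (at least 5 cells, depth-matched) and 153 and 234 (without the deepest 10%). In the GFP- libraries (156 and 207) depth-matched cells gave 64 and 76. The interaction (15 and 14) gave 1 and 1 (2000 UMIs), 8 and 9 (depth-matched), 9 and 5 (with Fabp5), 2 and 1 (DESeq2), 7 and 1 (at least 5 cells), 1 and 0 (at least 5 cells, depth-matched), 23 lower without a filter and 6 lower without cells of other types. It gave 0 and 0 without the replicate block, where 449 genes had an unadjusted p under 0.05. Between co-expressing cells of the sorts (6 and 9) it was 26 and 51 without a filter, 42 and 59 without cells of other types, 5 lower with 2000 UMIs and with DESeq2, 0 and 0 with at least 5 cells (113 genes at an unadjusted p under 0.05), and 1 lower with the mouse as replicate block. The cause of these shifts was not tested, apart from the smaller numbers of genes tested with fewer UMIs or cells. For the 79 called genes named in the text, 1331 alternative values held 1220 that kept direction and call, 109 that did not pass and 2 that reversed: S100a8 at 1.62 without cells of other types and Top2a at 0.379 without the deepest 10% of cells, neither past the threshold. The GFP- fit with 10 cells per library, the comparison of routes and the fit with at least 20 cells per library were not run, since 1 library was left per arm, and the fit without the deepest 10% could be had only at 5 cells. Depth limits the share, since 39 of 93 cells met the rule at 2000 UMIs, and the number of libraries limits comparisons of sorts.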
